A study of Homo sapiens with 6 samples.

Results

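The 7 mature miRNAs described here are both arms of miR-149, of miR-328 and of miR-92b, together with miR-760, for which a single arm is listed. They were picked by name from the 2588 rows of the count table. The named hairpins are some of those for which the study put forward METTL1-dependent m7G in A549 lung cancer cells. Its candidates among the 7 arms are miR-149-3p, miR-328-3p, both arms of miR-92b and miR-760. The other arms, miR-149-5p and miR-328-5p, were added because they are listed. The study also profiled m7G in Caco-2 and reported that the miRNAs found there significantly overlapped those of A549. The 7 arms do not include all of its candidates outside the large families: miR-125a-5p, miR-193a-5p, miR-23b-5p, miR-505-5p and miR-663a, for example, are not among them. The candidates come from another cell line than the one measured here, but this selection among them was made with earlier results of these Caco-2 data known. Caco-2 is an established line from a colorectal adenocarcinoma, used here as 1 untreated line. The 3 input and 3 m7G-RIP libraries were made from its total RNA. In the study's protocol the 5′ caps are removed, the RNA is heat-denatured, and an aliquot is then saved as input. For m7G-RIP the RNA is immunoprecipitated with an antibody against N7-methylguanosine (m7G). Whether replicates came from separate cultures is not stated, so the p-values measure the spread between libraries, which may be technical. No library from a control antibody was analysed here.

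A miRNA is cut from a hairpin in its primary transcript, first by DROSHA in the nucleus and then by DICER in the cytoplasm. This leaves a duplex of a 5p and a 3p arm. One arm is usually loaded into an Argonaute protein and the other is mostly degraded, so the abundance of both arms can differ widely although they come from the same hairpin. The seed, bases 2 to 8 of the mature miRNA, pairs with target mRNAs and defines families that share targets. METTL1 is the methyltransferase that places internal m7G in tRNAs. Guanosines are the only bases that can carry m7G, and runs of guanosines can fold into G-quadruplexes, structures whose place in miRNA precursors the study examined.

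The mature sequences of the 7 arms, from RefSeq on GRCh38.p14, are shown with the seed in capitals, because the arms of each hairpin differ both in their seed and in where their guanosines lie (the prefix hsa-, for human, is left out from here on):
hsa-miR-149-5p: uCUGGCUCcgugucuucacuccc
hsa-miR-149-3p: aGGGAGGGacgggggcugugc
hsa-miR-328-5p: gGGGGGGCaggaggggcucaggg
hsa-miR-328-3p: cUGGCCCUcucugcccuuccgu
hsa-miR-92b-5p: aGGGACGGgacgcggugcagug
hsa-miR-92b-3p: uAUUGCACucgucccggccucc
hsa-miR-760: cGGCUCUGggucugugggga

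The 4 arms with at least 1 run of 3 or more G are shown once more with those runs in capitals, since the comparisons of base composition rest on them:
miR-149-3p: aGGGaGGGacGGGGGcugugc
miR-328-5p: GGGGGGGcaggaGGGGcucaGGG
miR-92b-5p: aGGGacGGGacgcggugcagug
miR-760: cggcucuGGGucuguGGGGa

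In each of the 3 pairs 1 arm was rich in guanosine and the other was not. Guanosines made up 61.9% of miR-149-3p (13 of 21 bases), 69.6% of miR-328-5p (16 of 23) and 54.5% of miR-92b-5p (12 of 22). They made up 17.4% of miR-149-5p (4 of 23 bases) and 18.2% of both miR-328-3p and miR-92b-3p (4 of 22 each). In miR-760 the share was 50% (10 of 20 bases). The guanosine-rich arm is the 3p arm of miR-149 but the 5p arm of miR-328 and of miR-92b.

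The MIR149 hairpin lies on chromosome 2 of GRCh38 at chr2:240456001-240456089 (plus strand), inside a GPC1 intron and in the direction of that gene, and opposite an intron of GPC1-AS1. The MIR328 hairpin is at chr16:67202321-67202395 on the minus strand, opposite an intron of ELMO3. The MIR92B hairpin is at chr1:155195177-155195272 on the plus strand and overlaps an exon of the long noncoding RNA THBS3-AS1 on the same strand. The MIR760 hairpin is at chr1:93846832-93846911 on the plus strand, opposite an intron of BCAR3. A motif of 4 runs of GG or longer, with linkers of 1 to 4 bases and searched on the hairpin strand only, was present in the hairpins of miR-149, miR-328 and miR-92b and not in that of miR-760. It was present in 17.9% of all 1562 hairpins in the table (279 hairpins). The stricter form with 4 runs of GGG or longer was found in miR-149 and miR-92b, and in 0.96% of all hairpins (15 hairpins). Because this motif overlaps the guanosine-rich arms of miR-149, miR-328 and miR-92b, the stretches in the first 2 hairpins are shown with runs of at least 2 G in capitals:
MIR149: GGaGGGaGGGaGGGacGGGGG
MIR328: GGaguGGGGGGGcaGGaGGGGcucaGGG

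The stretch in MIR149 covers bases 50 to 70 of the hairpin (chr2:240456050-240456070), and miR-149-3p covers bases 56 to 76. The stretch in MIR328 covers bases 2 to 29 and contains all of miR-328-5p, which covers bases 7 to 29. In MIR92B the stretch is 33 bases long, from base 2 to base 34, and miR-92b-5p begins inside it at base 20. A match is a description of the sequence and does not show that a structure forms.

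Total counts on miRNAs ranged from 16466178 to 19628046 in the input and from 1654102 to 3105129 in m7G-RIP. Levels are given as CPM, the usual scaling of counts to a common library size, with library sizes corrected by TMM factors (trimmed mean of M-values, which assumes that most miRNAs do not move). A count of 3 was worth 0.235 to 0.262 CPM in an input library and 0.676 to 1.11 CPM in an m7G-RIP library. Such floors cover counting error only. As a check of the cell line, all 7 miRNAs of an intestinal epithelial list (miR-192-5p, miR-194-5p, miR-215-5p and 4 of the miR-200 family) were detected in the input, with a summed level between 112703 and 120232 CPM. A list of 10 miRNAs of liver, muscle, neurons and blood summed to between 689 and 766 CPM in the input, nearly all of it miR-1-3p at 644 CPM, while miR-122-5p and miR-223-3p had no counts there. In m7G-RIP these sums were 37891 to 47112 CPM and 584 to 875 CPM. Their part in the results was not tested.

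Of the 7 arms, 6 passed the filter on low counts. In m7G-RIP 5 of them, miR-149-3p, miR-760, miR-92b-5p, miR-92b-3p and miR-328-3p, were enriched over the input and 1, miR-149-5p, was depleted (edgeR's quasi-likelihood test, Benjamini-Hochberg adjusted p under 0.05 over all miRNAs, TMM scaling). Among all 800 miRNAs tested, 40.1% were called enriched and 38.1% depleted, 78.2% in all, so that a call by itself sets no arm apart. The filter asks for a minimum level in at least 3 libraries, the size of 1 group. A miRNA rare in the input was therefore tested only if it was high enough in m7G-RIP, as for miR-149-3p. These percentages depend in part on that filter. The median log2 enrichment was 2.07 over the 6 arms and 0.16 over all miRNAs tested. The 5 enriched arms are those that the study itself listed as candidates in A549, and miR-149-5p was added as an other arm. The remaining arm, miR-328-5p, was counted 1, 2 and 1 times in the input libraries and 0, 2 and 2 times in the m7G-RIP libraries. Both groups were thus under 3 counts per library, and no fold was computed.

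**Figure D1:**
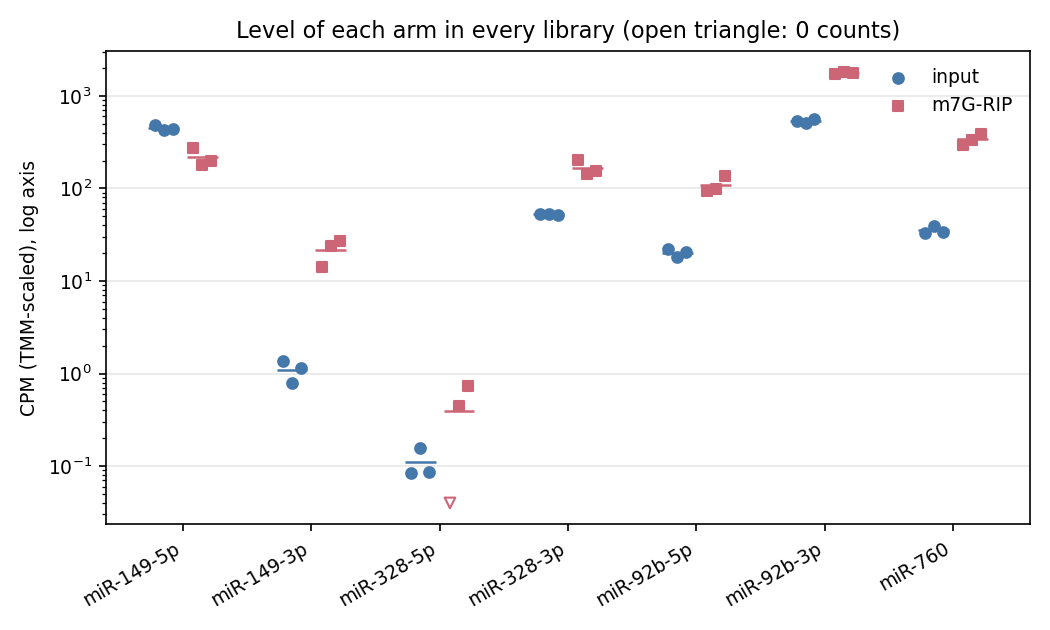
CPM (TMM-scaled, log axis) of the 7 arms in the 3 input (circles) and 3 m7G-RIP (squares) libraries, with the mean as a line and 0 counts as an open triangle. miR-149-5p alone has its m7G-RIP points, 180 to 273 CPM, under its input points, 431 to 489 CPM, a direction that total-count scaling turns to 0.035 on the log2 scale.

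miR-149-3p, the guanosine-rich arm of miR-149, showed the largest enrichment of the 6 arms and was the rarest of them. Its counts were 16, 10 and 13 in input replicates 1, 2 and 3, or 1.36, 0.783 and 1.13 CPM. In m7G-RIP they were 58, 106 and 74, or 14.1, 23.9 and 27.3 CPM. The m7G-RIP libraries, although several times less deep, held more reads of this arm than the input libraries did. The log2 enrichment was 4.29 ± 0.39 (SE; edgeR adjusted p = 4.08e-07), rank 25 of the 800 miRNAs tested. In the input this arm was under the level that the filter asks for, so it was tested only because of its m7G-RIP level. Its p-value and its rank are thus not independent of that level. With at least 10 counts asked of every library the log2 enrichment was 4.17 (adjusted p = 9.8e-07, edgeR). The enrichment of miR-149-3p rested on few input reads, and 6 other places in the genome differ from its sequence by 1 base. The mapping in the study's methods allowed 1 mismatch but kept only the best-scoring places of a read. The processing notes name another mapper. The share of reads from these 6 places was not tested. The other 6 arms had no such place, and all 7 matched the genome exactly at 1 place.

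miR-149-5p, the arm that dominated the hairpin in the input, moved the other way. Its input level was 489, 431 and 433 CPM and its m7G-RIP level 273, 180 and 199 CPM in replicates 1, 2 and 3, so that the groups did not overlap, as for 40.8% of all miRNAs tested with every m7G-RIP library under every input library. The log2 enrichment was -1.05 ± 0.17 (SE; edgeR adjusted p = 0.000106). This call depended on the scaling: with library sizes scaled by total counts the value was 0.035 (adjusted p = 0.845, edgeR) and with upper-quartile factors -0.22 (adjusted p = 0.292, edgeR), whereas DESeq2's size factors gave -1.40 (adjusted p = 5.1e-06, edgeR). Relative to TMM, these scalings moved the median log2 enrichment of all tested miRNAs by 1.09, 0.82 and -0.34. They changed the split of all calls from 321 enriched and 305 depleted to 442 and 198 with total counts and to 418 and 227 with upper-quartile factors.

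miR-760 rose in all 3 m7G-RIP libraries to levels well above any input library. It had 390, 504 and 391 input counts (33.2, 39.5 and 34.1 CPM) and 1217, 1484 and 1057 m7G-RIP counts (295, 334 and 389 CPM). Its log2 enrichment of 3.25 ± 0.18 (SE; edgeR adjusted p = 2.24e-09) was rank 89 of 800. This moved it from the 249th most abundant of the tested miRNAs in the input to the 97th in m7G-RIP.

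Both arms of miR-92b were enriched. miR-92b-3p, the abundant arm, was at 539, 512 and 557 CPM in the input and at 1742, 1797 and 1745 CPM in m7G-RIP, the steadiest m7G-RIP level of the arms tested, with an SD of 31.3 CPM on a mean of 1761 CPM. Its log2 enrichment was 1.72 ± 0.13 (SE; edgeR adjusted p = 6.43e-08). miR-92b-5p was at 22.4, 18.0 and 20.4 CPM in the input and at 93.9, 98.8 and 136 CPM in m7G-RIP, with a log2 enrichment of 2.43 ± 0.21 (SE; edgeR adjusted p = 2.37e-07). In neither arm did the groups overlap.

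miR-328-3p, known for targeting the drug transporter gene ABCG2, was counted 619, 671 and 595 times in the input (52.8, 52.6 and 51.9 CPM) and 829, 639 and 414 times in m7G-RIP (201, 144 and 153 CPM). The input libraries were almost identical in CPM (SD 0.445), and each m7G-RIP library was well above them. The log2 enrichment was 1.66 ± 0.18 (SE; edgeR adjusted p = 2.15e-06), close to that of miR-92b-3p. For each of these 5 enriched arms all m7G-RIP libraries were above all input libraries, as was the case for 41.4% of all miRNAs tested.

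**Figure D2:**
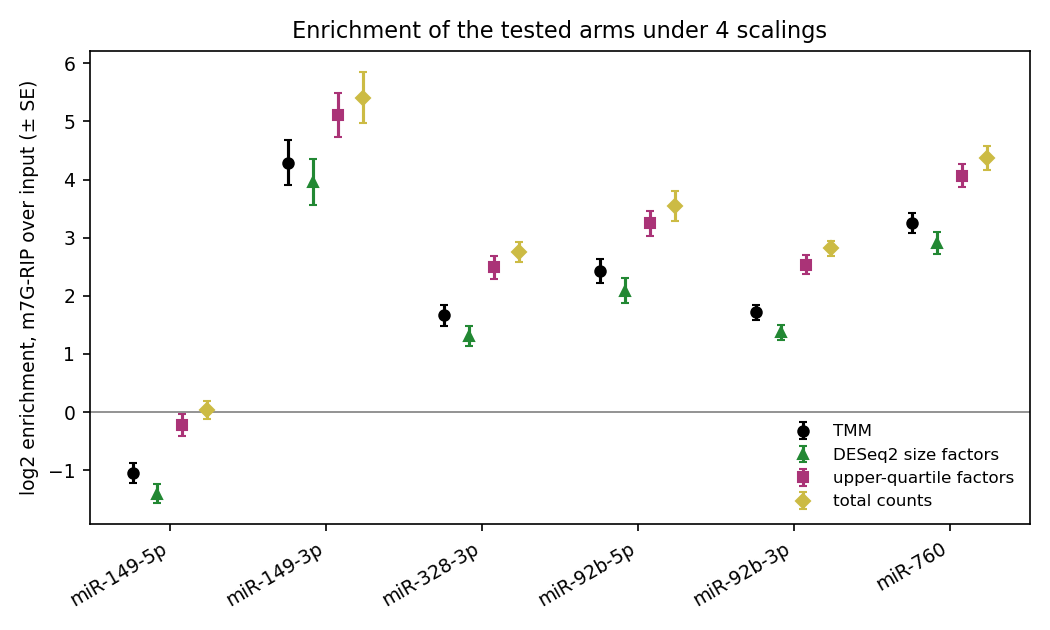
Log2 enrichment of m7G-RIP over input, with its standard error, for the 6 arms tested, under TMM (circles), DESeq2's size factors (triangles), upper-quartile factors (squares) and total counts (diamonds). The order of the arms is the same under each scaling, 5 arms stay above 0, and miR-149-5p runs from -1.40 to 0.035.

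The order of the arms by level differed between the fractions. A mature miRNA is read as a whole and the 7 arms are 20 to 23 bases long, so CPM of different arms can be set side by side, apart from differences in how well each is ligated and amplified. In the input the mean levels ran from 536 ± 22.6 CPM (SD, n = 3) for miR-92b-3p over 451.02 ± 32.9 for miR-149-5p, 52.4 ± 0.445 for miR-328-3p, 35.6 ± 3.38 for miR-760 and 20.3 ± 2.20 for miR-92b-5p to 1.09 ± 0.292 for miR-149-3p, and no neighbours in this order overlapped between libraries. In m7G-RIP they ran from 1761 ± 31.3 CPM (SD, n = 3) for miR-92b-3p over 339.7 ± 47.2 for miR-760, 218 ± 48.9 for miR-149-5p, 166 ± 30.9 for miR-328-3p and 109.6 ± 22.97 for miR-92b-5p to 21.7 ± 6.85 for miR-149-3p. Here the libraries of miR-149-5p and miR-328-3p overlapped and those of other neighbours did not.

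The 2 arms of a hairpin are measured in the same library, so their ratio does not depend on how libraries are scaled. For each hairpin the change of this ratio between input and m7G-RIP was tested as an interaction of arm and fraction with edgeR's quasi-likelihood test, over the 189 hairpins whose arms both had at least 10 counts in at least 3 libraries. The difference in enrichment between arms passed an adjusted p-value of 0.05 in 71.4% of these hairpins, with the 3p arm more enriched in 25.4% and the 5p arm in 46%.

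For miR-149 the 3p arm made up 0.278%, 0.182% and 0.261% of the reads of both arms in input replicates 1, 2 and 3, with Wilson 95% intervals that together spanned 0.0987% to 0.451%. In m7G-RIP it made up 4.91%, 11.7% and 12.03%, with intervals that spanned 3.81% to 14.8%. Each read of the 3p arm thus stood against 359 to 550 reads of the 5p arm in the input and against 7.31 to 19.4 in m7G-RIP. The log2 enrichment of the 3p arm exceeded that of the 5p arm by 5.34 ± 0.46 (SE; adjusted p = 7.95e-05, edgeR interaction test), the 5th largest difference in favour of a 3p arm among the 189 hairpins. m7G-RIP replicate 1 had the smallest 3p share of its group, and without it the difference was 5.78, the highest of the values from 5.11 to 5.78 that leaving out each library in turn gave.

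For miR-92b the difference ran towards the 5p arm and was much smaller. The 3p arm held 96.0%, 96.6% and 96.5% of the reads of both arms in the input and 94.9%, 94.8% and 92.8% in m7G-RIP, so that every m7G-RIP library was under every input library. The enrichment of the 3p arm was lower than that of the 5p arm, with a 3p minus 5p difference of -0.70 ± 0.18 (SE; adjusted p = 0.012, edgeR interaction test). With each library left out it lay between -0.79 and -0.53, with adjusted p-values from edgeR of at most 0.0458. For miR-328 the 3p arm held between 99.5% and 100% of the reads in all 6 libraries, and with at most 2 reads of the 5p arm a difference between its arms was not detectable at this depth.

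**Figure D3:**
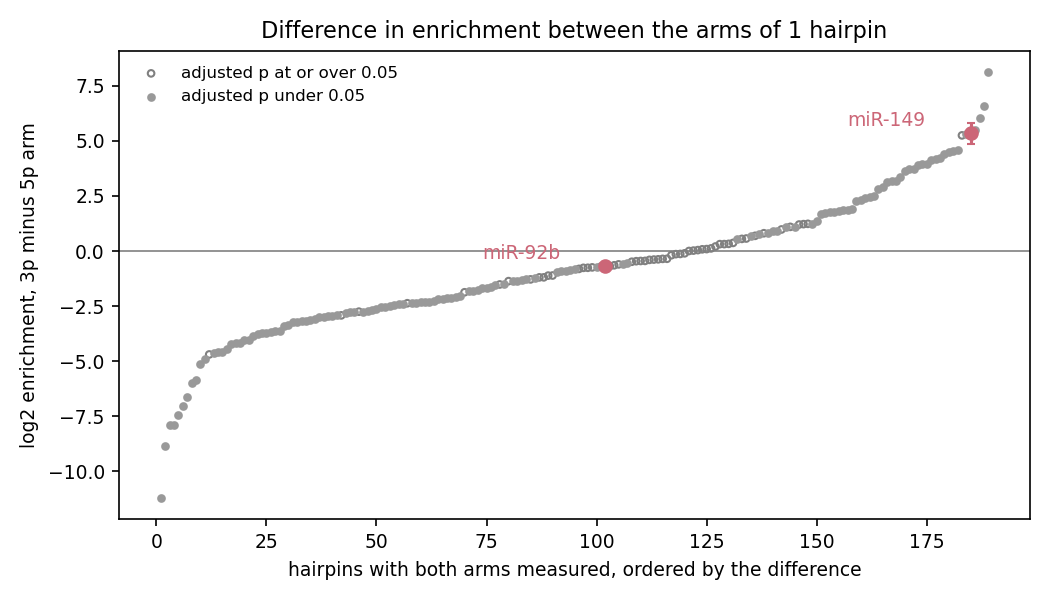
Difference in log2 enrichment between the 3p and the 5p arm (y axis) for the 189 hairpins tested, in rising order (x axis), with filled points for an adjusted p-value under 0.05 and standard errors on the 2 named hairpins. miR-149 stands at 5.34 near the upper end, and miR-92b at -0.70 in the middle of the order.

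In both hairpins the arm with more guanosines, miR-149-3p and miR-92b-5p, was the more enriched one. Among the 166 tested hairpins with sequences for both arms, 159 had arms with unequal guanosine shares, and in 114 of them the arm with more guanosines had the higher enrichment. In 81 hairpins 1 arm alone had a run of at least 3 G, and that arm was the more enriched one in 66 (81.5%). The difference in guanosine share between arms and the difference in enrichment had a Spearman's rho of 0.563 and a Pearson's r of 0.551 over the 166 hairpins, which share the same 6 libraries, so these values are a description. miR-149 and miR-92b are among these hairpins and follow the more common direction.

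Opposite calls for the arms of 1 hairpin, as for miR-149, were made in 35 of the 178 hairpins whose arms were also both tested one by one. In 11 of them the 3p arm was enriched and the 5p arm depleted, as in miR-149, and in 24 the reverse was seen. Both arms were enriched in 30 hairpins, as for miR-92b, and both were depleted in 59. The border between enriched and depleted moves with the scaling, so these numbers hold for TMM.

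Across single miRNAs, guanosine share and enrichment also went together, and the 6 arms fall into 2 groups on this scale. Over the 714 tested miRNAs with a sequence, Spearman's rho between them was 0.497 and Pearson's r was 0.498, with a rho of 0.306 over the 357 miRNAs at or above the median input level and of 0.577 over the 357 under it. The combined share of guanosine and cytosine gave a rho of 0.451 over all 714, of 0.383 at or above the median input level and of 0.370 under it. At or above the median, where the tested arms other than miR-149-3p lie, its rho was thus higher than that of guanosine alone. These miRNAs share the same 6 libraries, and the values are a description. Among miRNAs rare in the input only those high enough in m7G-RIP were tested. This filter shapes in part the values under the median input level and those over all 714. miR-149-3p, miR-92b-5p and miR-760 had at least 50% guanosine. Of the 98 tested miRNAs with at least that share, 90 (91.8%) were called enriched with TMM, and the median log2 enrichment was 3.11 with a lowest value of 0.05. Some of these miRNAs were rare in the input and passed the filter only through m7G-RIP. The share called, the median and the lowest value therefore follow in part from the filter. Values matched for input level were not computed for this composition. The enrichment of these 3 arms lay inside the range for this composition, from 0.05 to 5.28, on both sides of its median. miR-92b-5p, at 2.43, was under that median and miR-760, at 3.25, was slightly above it. miR-149-3p, at 4.29, was well above it and ranked 25 among all 800 miRNAs tested.

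miR-92b-3p, miR-328-3p and miR-149-5p had between 17% and 19% guanosine, a band chosen after the values were seen. Of the 59 tested miRNAs in this band 5 (8.47%) were enriched and 39 (66.1%) depleted with TMM, with a median log2 enrichment of -1.99. miR-92b-3p and miR-328-3p were 2 of these 5, and 3 miRNAs in the band had a higher enrichment than miR-328-3p, miR-92b-3p being one of them. Their combined share of guanosine and cytosine was 63.6% and 68.2%, against 60.9% in miR-149-5p. Against miRNAs with a similar share of guanosine both arms stood high, while miR-149-5p was above the median of the band although depleted. Neither miR-92b-3p nor miR-328-3p has a run of 3 G, and among the tested miRNAs without such a run 26.5% were enriched (120 of 453), against 65.1% of those with one (170 of 261). With the input level at or above the median these shares were 18.8% and 46.1%.

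**Figure D4:**
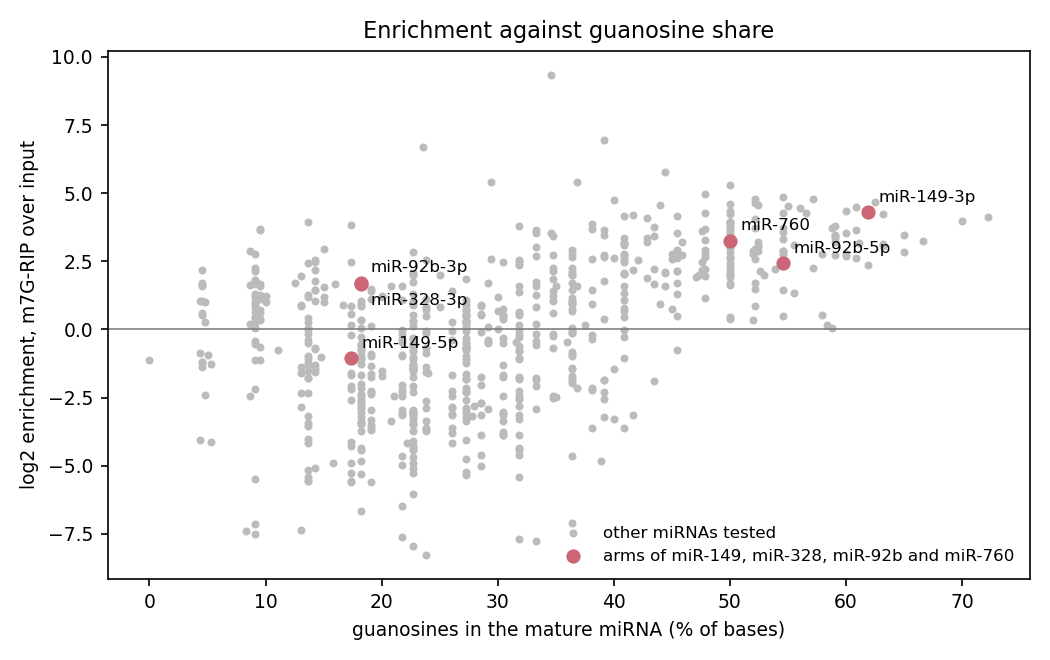
Log2 enrichment of m7G-RIP over input (y axis) against the share of guanosine in the mature miRNA (x axis, percent of bases) for the 714 tested miRNAs with a sequence, with the 6 tested arms in colour. miR-149-3p, miR-92b-5p and miR-760 lie within the cloud at high guanosine shares, and miR-92b-3p and miR-328-3p (overlapping points) lie at 18.2% on the upper side of the cloud.

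miR-92b-3p shares its seed with 5 other miRNAs in the count table, which makes it possible to compare enrichment among miRNAs with the same first bases. Their sequences are shown with the seed in capitals, since the bases after it are where they differ:
miR-92b-3p: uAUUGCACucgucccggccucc
miR-92a-3p: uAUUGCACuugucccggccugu
miR-25-3p: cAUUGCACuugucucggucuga
miR-32-5p: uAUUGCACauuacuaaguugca
miR-363-3p: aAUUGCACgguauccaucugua
miR-367-3p: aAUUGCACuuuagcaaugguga

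Counted from the first base, miR-92a-3p differs from miR-92b-3p at 3 positions, miR-25-3p at 6, miR-32-5p at 11, and miR-363-3p and miR-367-3p at 12 each. Despite the shared seed their enrichment ranged widely. miR-92a-3p, of the miR-17/92 cluster and a highly abundant miRNA of these cells, was at 62788, 65144 and 68108 CPM in the input and at 139242, 111914 and 115153 CPM in m7G-RIP, a log2 enrichment of 0.90 ± 0.14 (SE; edgeR adjusted p = 8.03e-05). miR-25-3p was at 4436 ± 230 CPM in the input and at 1603 ± 379 CPM in m7G-RIP (SD over 3 libraries each), and its log2 enrichment was -1.47 ± 0.17 (SE; edgeR adjusted p = 4.36e-06). miR-32-5p had nearly the same input level as miR-92b-3p, 520.5 ± 40.3 CPM, and fell to 11.0 ± 3.46 CPM (SD over 3 libraries each), with a log2 enrichment of -5.56 ± 0.23 (SE; edgeR adjusted p = 2.01e-10). miR-363-3p had 1, 7 and 12 counts and miR-367-3p 21, 10 and 22 counts in the input, and both had 0 counts in every m7G-RIP library. Their input levels were 0.085 to 1.05 CPM and 0.783 to 1.92 CPM. In an m7G-RIP library 1 count was worth 0.225 to 0.368 CPM, so few reads could appear there and no fold is given.

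The ratio of miR-92b-3p to each of the 3 relatives in the same library was compared between the fractions. Against miR-92a-3p the log2 ratio rose from -6.93 ± 0.06 (SD, n = 3) to -6.11 ± 0.19 (SD, n = 3), a difference of 0.82 ± 0.12 (SE). Against miR-25-3p the difference was 3.21 ± 0.21 (SE) and against miR-32-5p 7.31 ± 0.28 (SE). In all 3 comparisons the m7G-RIP libraries lay above the input libraries without overlap. An exact two-sided permutation test gave p = 0.1 for each, which is the smallest value that 3 against 3 libraries allow, and 0.1 after Benjamini-Hochberg adjustment over the 3 comparisons, so none can pass 0.05 in this design. miR-92a-3p has 2 loci in the genome and miR-92b-3p has 1. Of 14 rows with at least 3 loci and at least 100 counts in all, 8 held only exact multiples of their number of loci. That is the pattern of reads counted once at each locus. The count of miR-92a-3p was even in 5 libraries but odd, at 312549, in m7G-RIP replicate 3, so the pattern was not exact for it. The ratio to miR-92a-3p within a fraction may still be understated. A factor that is the same in every library cancels in the change between fractions.

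**Figure D5:**
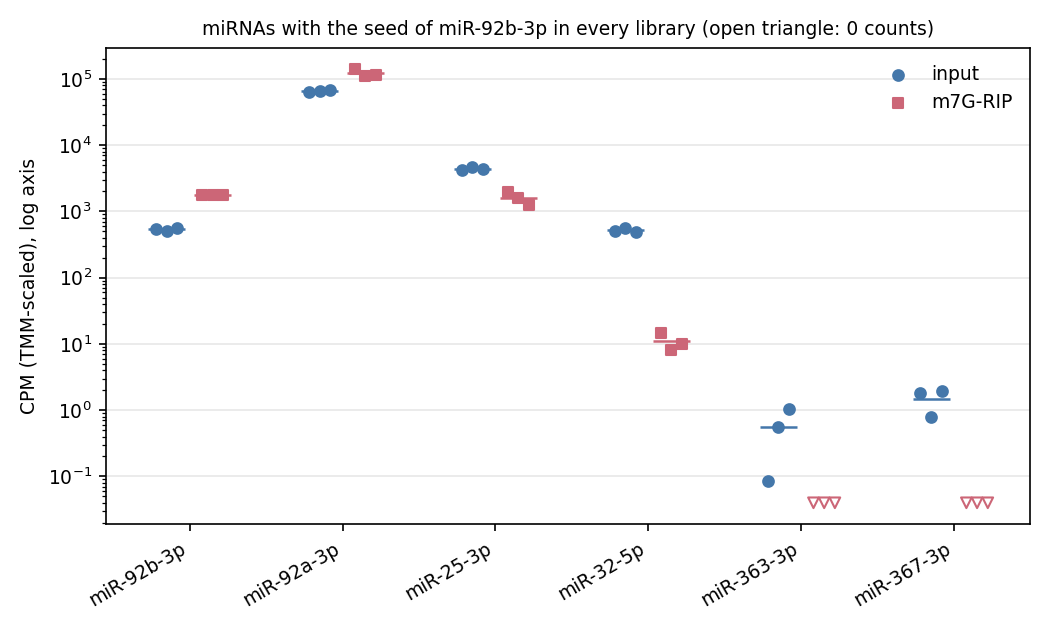
CPM (TMM-scaled, log axis) in the 3 input (circles) and 3 m7G-RIP (squares) libraries for the 6 miRNAs with the seed of miR-92b-3p, with means as lines and 0 counts as open triangles. miR-92b-3p and miR-32-5p start from similar input levels, 536 and 520.5 CPM, and end at 1761 and 11.0 CPM in m7G-RIP.

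The guanosine-rich arms share their seeds with few other miRNAs. miR-149-3p has the seed GGGAGGG in common with miR-4728-5p and miR-6785-5p, both of which were enriched, with log2 values of 4.63 ± 0.31 (SE) and 3.44 ± 0.54 (SE). miR-328-5p has the seed GGGGGGC in common with miR-6885-5p, which was counted at a mean of 0.115 CPM in the input and 3.47 CPM in m7G-RIP. With at most 2 input reads per library, miR-6885-5p passed the filter only through m7G-RIP. Its log2 value of 4.75 ± 0.76 (SE) thus follows in part from the filter, and no p-value is given. No other listed miRNA with a sequence had the seed of miR-149-5p, miR-328-3p, miR-92b-5p or miR-760.

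By level alone, the miRNAs most like each arm were found by the root mean square difference of log2 CPM over the 6 libraries. Since input and m7G-RIP both enter this measure, a near miRNA also has a near enrichment by construction. For miR-760 the nearest were miR-2110 (0.238) and miR-320d (0.466), and for miR-328-3p they were miR-4443 (0.240) and miR-1304-5p (0.432). For miR-149-3p they were miR-4723-5p (0.266) and miR-6734-5p (0.324), and for miR-149-5p miR-185-5p (0.386) and miR-501-5p (0.451). For miR-92b-5p they were miR-365b-5p (0.308) and miR-1255a (0.456). For miR-92b-3p they were miR-629-5p (0.419) and miR-125a-5p (0.495).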

How the data were processed

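The authors' deposited values are raw counts of reads per mature miRNA, without normalization, for 3 input and 3 m7G-RIP libraries of Caco-2 cells. Adaptors were trimmed with Trimmomatic and reads were counted on miRBase entries with featureCounts. The methods name STAR for mapping to GRCh38, with up to 1 mismatch, while the submitters' processing notes name Bowtie2. How reads with several loci were counted is not given in the sources used here.

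Libraries were grouped by their titles. Enrichment was tested with edgeR 4.0.16 in R 4.3.3 (filterByExpr with a minimum count of 10 and a minimum total of 15, TMM, quasi-likelihood test, Benjamini-Hochberg adjustment, threshold 0.05); standard errors are the log2 value divided by the square root of F. The arm test had 1 row per hairpin, 2 columns per library, and library, arm and arm by fraction as terms. Ratios used a pseudocount of 0.5, as did the log2 CPM for likeness. Both fits were run on simulated counts in which a minority of rows changed, about equally in both directions. Far more miRNAs were called in these data, so the simulation does not test the choice of scaling. Libraries of a group differed by more than sampling noise (chi-square over degrees of freedom 17.5 to 105), so each counted as 1 replicate. Sequences and coordinates are from RefSeq on GRCh38.p14, matched by name for 2281 of 2588 rows, and gene context from GENCODE release 44. The named miRNAs are the 7 arms, listed miRNAs with the same seed, and for each tested arm the 2 nearest in log2 CPM. Members and lists were chosen with earlier results of these data known. Alternatives were DESeq2 1.42.0 (size factors, Wald test), total counts, upper-quartile factors, other filters, limma 3.58.1 on log2 ratios (pseudocounts 0.5 and 5), the replicate block, each library left out and, added after the data were seen, counts divided by the number of loci. Python 3.11.15, pandas 2.3.3, scipy 1.17.1 and matplotlib 3.10.9 were used for descriptions and plots.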

Additional observations from a re-analysis of the deposited data

How the results depend on the processing

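The 5 enriched arms stayed enriched and past the threshold under each of 14 alternatives, with log2 values from 3.96 to 5.41 for miR-149-3p, 2.91 to 4.37 for miR-760, 2.09 to 3.55 for miR-92b-5p, 1.37 to 2.82 for miR-92b-3p and 1.31 to 2.75 for miR-328-3p. miR-149-5p did not: it reversed to 0.035 with total counts and was no longer called, at -0.22, with upper-quartile factors, so that 0 arms were depleted with either (edgeR, also 0 of the 6 arms depleted at an unadjusted p under 0.05). These scalings raise all miRNAs together. Over all miRNAs, total counts left 198 depleted. A minimum of 10 counts in each of the libraries left 182 were enriched and 175 depleted, of 426 tested, and the arm test, on 92 hairpins, called 30 for the 3p and 47 for the 5p arm, since fewer were tested. With each library left out it called 31 to 43 hairpins for the 3p arm, the lowest without input replicate 1, where 144 were tested. The arm difference of miR-149 was 4.97 to 5.78 and that of miR-92b -0.79 to -0.53 over 11 alternatives each. The log2 ratio change of miR-92b-3p to miR-92a-3p was 0.75 to 0.93 with each library left out.

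Whether same-numbered libraries came from 1 RNA preparation is not stated, although the study's protocol takes the input as an aliquot of the immunoprecipitated RNA. The correlations of their deviations from the group means were -0.03, -0.04 and 0.07. These values cannot settle the pairing, since spread added within each library would hide it. With the replicate block 296 miRNAs were enriched and 295 depleted, miR-149-3p had a log2 enrichment of 4.26 and miR-149-5p of -1.07, and the arm differences were 5.33 for miR-149 and -0.70 for miR-92b. For the ratio to miR-92a-3p the paired difference was 0.82 (exact sign-flip test of 3 pairs, p = 0.25, the smallest possible). In this block no call of the 6 arms or of both hairpins changed. The lower totals of m7G-RIP limit rare arms, above all miR-328-5p.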

Other observations

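Among the other hairpins of the arm test, 2 with higher counts showed the same split as miR-149, and they were chosen after their values were seen. For miR-30b the 3p arm had a log2 enrichment of 1.93 (standard error 0.14) and the 5p arm of -4.66 (standard error 0.16), a difference of 6.60 (standard error 0.12). For miR-194, an intestinal miRNA, the 3p arm was at 255 ± 3.87 CPM in the input and 1736 ± 188 CPM in m7G-RIP, while the 5p arm was at 15999 ± 148 and 1649 ± 236 CPM (SD over 3 libraries each). The difference between its arms was 6.05 (standard error 0.12). Both differences were past an adjusted p of 0.05 in edgeR's interaction test, with 8.04e-08 for each.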
